A study of Mus musculus with 12 samples.

Results

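RNA bound to tagged ribosomes of sensory neurons was set against the total RNA of the same kind of tissue, in dorsal root ganglia (DRG) that had received no injury. The comparison took 6 of the 12 libraries of the series, chosen by their labels alone: 3 immunoprecipitate (IP) libraries and 3 input libraries of naive ganglia. All animals carried Adv-Cre together with the RiboTag allele, so the inputs came from tagged mice too. The IP held RNA that came down with an antibody to the hemagglutinin (HA) tag on Rpl22, and the input was taken from the same preparations before that step. The ganglia were lumbar, L4 to L6, and the series' other 6 libraries are IP and input of ganglia taken 3 days after a sciatic nerve crush. The design text takes injured and naive ganglia from each animal, so a naive ganglion may be the uncrushed side of a crushed mouse. It speaks of 4 mice, while 3 libraries a group were analysed here, and the animal behind a replicate number is not stated. The p-values thus rest on library-to-library spread alone, part of which may be technical. Strain, sex and age are not given in the sources used here.

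RiboTag mice carry a copy of Rpl22, a protein of the large ribosomal subunit, that gains an HA tag in any cell with Cre recombinase. Advillin, the gene named in the driver line, is an actin-binding protein whose expression is largely that of peripheral sensory neurons. A DRG also holds satellite glia wrapped around each neuron, Schwann cells along the axons, macrophages, vessels and connective tissue, and these contribute to input but carry no tag unless Cre acted in them. A transcript can stand high in IP against input because tagged cells hold it, or because a large share of it sits on ribosomes, and the comparison does not tell these apart. In bulk RNA, fewer cells of a type and less RNA per cell cannot be told apart either.

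The naive IP libraries held 33574292 to 36409731 counts in genes, and the naive input libraries 29497771 to 33086433. Levels are CPM, counts scaled to library size and composition, and they are compared here between libraries, never between genes. On the main axis of a principal component analysis over all 12 libraries, which held 68.5% of the variance, the naive IP libraries lay between -63.8 and -43.9 and the naive inputs between 32.9 and 43.1. Input library 3 stood apart from the other naive inputs on the third axis, at 20.2 against -8.31 and -17.3. The injured input of the same number did so too, at 28.7 against -12.6 and -15.0. IP library 1 had the lowest IP level of genes listed for most other cell types. Values without single libraries are given where they change a call or move a value by over 1.5 times.

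Of 15748 genes tested with edgeR's quasi-likelihood test, 6474 (41.1%) differed at a Benjamini-Hochberg adjusted p under 0.05, with 2383 (15.1%) higher and 4091 (26%) lower in IP. With library size alone as scaling the split was 1368 higher and 4760 lower. The sizes were unequal in the 2 directions. Only 23 genes (0.146%) were higher in IP by at least 1 on the log2 scale, while 2505 (15.9%) were lower by as much. The 99th percentile of the log2 change over all genes was 0.76 and the 1st percentile was -3.36, around a median of -0.01. The 3 IP libraries all lay above the 3 inputs for 3824 genes (24.3%), and all below them for 4856 (30.8%).

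Avil itself, the gene that drives the Cre, had 739, 721 and 727 CPM in IP, against 543, 507 and 557 CPM in input. Its IP libraries lay above all inputs, and it was higher in IP by 0.45 log2 (SE 0.08, adjusted p = 0.000757). Rpl22, which carries the tag, had 76.3, 77.8 and 78.5 CPM in IP and 95.7, 88.1 and 93.3 CPM in input, with no overlap. It was lower (-0.25 log2, adjusted p = 0.00448), a call that was lost without input library 3 (adjusted p = 0.0685). Its close relative Rpl22l1 was lower (-0.62 log2, adjusted p = 0.00183). Counts at the Rpl22 locus include untagged copies in other cells.

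App and Clip3 were among the 15 genes with the largest increase, out of the called genes whose IP and input libraries did not overlap and whose mean level was at least 5 CPM. App, the amyloid precursor protein (chromosome 16, 84952666 to 85175255 on GRCm38), had 1774, 1468 and 1804 CPM in IP, against 827, 827 and 867 CPM in input. Clip3, a linker protein of Golgi and transport membranes (chromosome 7, 30291695 to 30308367), had 521, 375 and 465 CPM in IP, against 197, 228 and 216 CPM in input. For both genes the lowest IP library, number 2, was still well above the highest input. They were higher by 1.00 (SE 0.10, adjusted p = 9.63e-06) and 1.09 log2 (SE 0.16, adjusted p = 0.000221). Others in this group were Rspo4, a secreted potentiator of Wnt signalling (1.11 log2), Cep162, a centriole protein (1.05), Ddx42, an RNA helicase (0.97), Zfhx2, a zinc finger homeobox factor that has been tied to pain insensitivity in people (0.97), Rab27b, a GTPase of secretory vesicles (0.96), and Myt1l, a factor that keeps neuronal identity (0.94). Lpar5, a receptor for lysophosphatidic acid, was higher by 0.91 and Aftph, a clathrin trafficking protein, by 0.90. Rab27b was spread widely in input, with 82.9, 99.3 and 48.6 CPM, and tightly in IP, with 150, 149 and 150 CPM.

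The 10 genes with the most counts among those called higher were mostly structural and signalling proteins of neurons. Prune2 had 8152, 6913 and 7831 CPM in IP, against 5295, 5069 and 4993 CPM in input, a rise of 0.58 log2. Nefm, the medium neurofilament subunit, was higher by 0.46 log2, Ywhag, a 14-3-3 adaptor, by 0.43, Klc1, a kinesin light chain, by 0.41, Kif1b, a kinesin that carries vesicle precursors and mitochondria, by 0.30, Ndrg4 by 0.30 and Hsp90ab1, a chaperone, by 0.31. In none of these did the 3 IP and 3 input libraries overlap.

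Of 40 pan-neuronal genes, 25 were higher in IP and 0 were lower, against 15.1% and 26% of all genes, and the list's median was 0.33 log2 against -0.01 over all genes. With library size alone as scaling 1 member was called lower. Summed over the list, they took 46376 to 48333 CPM in IP and 39774 to 41197 CPM in input. Rbfox3 (NeuN), a splicing factor used as a neuronal marker, had 210, 191 and 213 CPM in IP, against 135, 152 and 150 CPM in input (0.49 log2, adjusted p = 0.000255). Ina, an intermediate filament of neurons, was higher by 0.75 log2, Syn1, which tethers synaptic vesicles, by 0.73, Pou4f1 (Brn3a), a sensory neuron factor, by 0.52, and Stmn2, a tubulin-binding protein of growing axons, by 0.47. Several of the best known neuronal genes did not pass the test. Nefh, the heavy neurofilament subunit, had 2233, 2212 and 2135 CPM in IP and 2299, 2302 and 2347 CPM in input (-0.08 log2, adjusted p = 0.318), at 0.01 log2 without input library 3 and -0.17 (adjusted p = 0.0255) with library size as scaling. Tubb3, a neuronal beta-tubulin, had 3382, 3978 and 3490 CPM in IP and 3232, 3152 and 3576 CPM in input, and its libraries overlapped (0.12 log2, adjusted p = 0.373). Elavl4 (HuD), a neuronal RNA-binding protein, stood at 0.44 log2 without passing (adjusted p = 0.0757), and passed without input library 2 (adjusted p = 0.0169).

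**Figure D1:**
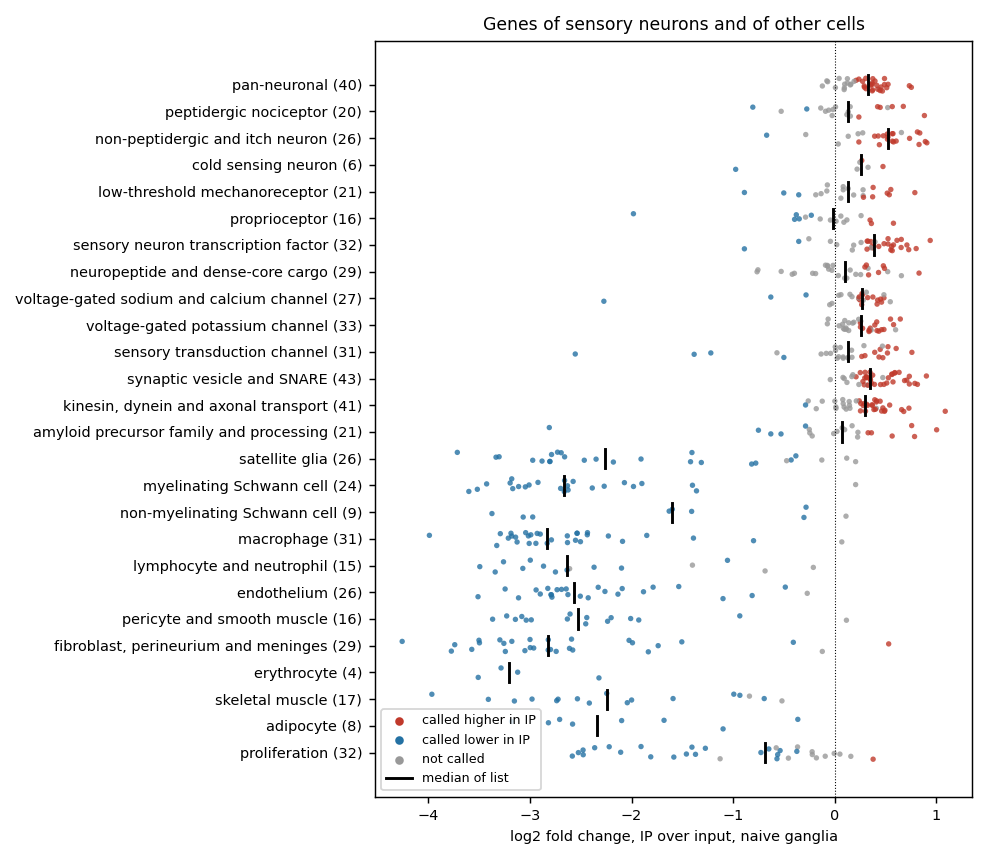
Log2 fold change of IP over input in naive ganglia (x axis) for each tested member of 26 gene lists, with the number of members tested in brackets, the median of each list as a black bar, and points coloured by the edgeR call at an adjusted p under 0.05. The lists of sensory neuron genes have medians between -0.02 and 0.52, and those of other cells and proliferation between -3.20 and -0.69.

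Lists of sensory neuron classes differed in how many members were higher or lower, and some lists share members. Genes of non-peptidergic and itch neurons stood out in size, with 19 of 26 higher, 1 lower and a median of 0.52 log2. Plxnc1, a semaphorin receptor placed in the peptidergic list, had 934, 774 and 841 CPM in IP, against 469, 500 and 415 CPM in input (0.88 log2, adjusted p = 2.7e-05). Il31ra, a subunit of the receptor for the itch cytokine interleukin 31, had 42.4, 44.9 and 45.3 CPM in IP, against 24.3, 24.98 and 24.98 CPM in input (0.84 log2, adjusted p = 8.14e-06). The Il31ra libraries were tight within each fraction and did not overlap. Cysltr2, a cysteinyl leukotriene receptor, was higher by 0.89 log2, Sst, the itch neuron peptide somatostatin, by 0.83, and Ret, the receptor of glial cell line-derived ligands, by 0.52. Of the same list, Mrgprb5 was lower, with 2.99, 3.38 and 3.24 CPM in IP and 4.82, 6.28 and 4.20 CPM in input (-0.67 log2, adjusted p = 0.0141). That call was lost without IP library 1 (adjusted p = 0.0538) or input library 2 (adjusted p = 0.0725), and Mrgpr genes have close copies that reads could be shared with.

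Of 20 genes of peptidergic nociceptors, 6 were higher and 2 lower, with a median of 0.13 log2. Scn10a, the tetrodotoxin-resistant sodium channel of nociceptors, had 1739, 1612 and 1660 CPM in IP, against 1220, 1226 and 1298 CPM in input (0.42 log2, adjusted p = 0.00117). Ptger3, a prostaglandin E2 receptor, was higher by 0.67 log2. Calca, which encodes the peptide CGRP, had 1047, 1349 and 1074 CPM in IP and 1155, 1246 and 1114 CPM in input, and the fractions overlapped (-0.02 log2, adjusted p = 0.912). Sstr2, a somatostatin receptor, was lower, with 3.49, 3.93 and 3.47 CPM in IP and 6.87, 6.43 and 5.76 CPM in input (-0.81 log2). The other member called lower was Kit, a call lost without any 1 of IP libraries 2 and 3 and the 3 inputs (adjusted p 0.0854 to 0.122), and the lower count was 1 without IP library 3 or any 1 input. Of 6 cold neuron genes 2 were higher and 1 lower: the cadherin Cdh8 (0.47 log2), the cold and menthol channel Trpm8 (0.26 log2) and the transcription factor Foxp2 (-0.98 log2). The Trpm8 call was lost without IP library 1 (adjusted p = 0.195), IP library 3 (0.0562) or input library 2 (0.126).

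Genes of touch and position sense, which include unmyelinated and myelinated neuron types, had members called in both directions. Of 21 genes of low-threshold mechanoreceptors, 7 were higher (33.3%, against 15.1% of all genes) and 3 lower (14.3%, against 26%), with a median of 0.13 log2. The higher count was 4 without IP library 1 and 3 without IP library 3 or with library size as scaling, where 6 were lower. Slc17a8 (VGLUT3), the vesicular glutamate transporter of unmyelinated touch neurons, had 18.8, 13.8 and 17.02 CPM in IP, against 10.4, 9.45 and 8.86 CPM in input (0.79 log2, adjusted p = 0.000484). Ntrk2 (TrkB), the receptor of brain-derived neurotrophic factor, went the other way, with 231, 237 and 235 CPM in IP and 337, 325 and 334 CPM in input (-0.50 log2, adjusted p = 1.78e-05). Maf, a factor needed for rapidly adapting mechanoreceptors, had 34.6, 31.2 and 33.6 CPM in IP and 58.2, 65.2 and 60.8 CPM in input (-0.89 log2, adjusted p = 4.99e-05). Neither gene's fractions overlapped. The 2 genes are also known from glia or macrophages, whose part in their input level was not tested. Of 16 proprioceptor genes, 3 were higher (18.75%) and 5 lower (31.25%), near the 15.1% and 26% of all genes. Their median was -0.02 log2, with 0.08 without input library 3 and -0.11 with library size as scaling. The lower count was 3 without IP library 2, IP library 3 or input library 3. The ETS factor Etv1, which proprioceptors need, was higher by 0.58 log2 and the netrin-G Ntng1 by 0.35. Chad, a matrix protein, was lower (-1.98 log2, and -1.29 without input library 3). That input held 1.99 CPM, and the other inputs 0.793 and 0.741 CPM.

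Transcription factors of sensory neurons rose as a rule. Of 32 tested, 22 were higher and 2 lower, with a median of 0.38 log2. Scrt2, a zinc finger repressor, had 55.8, 41.8 and 43.6 CPM in IP, against 24.6, 30.3 and 26.1 CPM in input (0.80 log2, adjusted p = 0.000537). Isl2, a LIM homeobox factor, had 338, 294 and 337 CPM in IP, against 205, 188 and 223 CPM in input (0.65 log2, adjusted p = 0.000738). Maf, given above, and Rora were the members called lower. The call of Rora was lost without IP library 2, input library 2 or input library 3 (adjusted p 0.0723 to 0.0888), which left Maf alone on the lower side.

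Of 29 neuropeptide and dense-core vesicle genes, 7 were higher (24.1%, against 15.1% of all genes) and 0 lower (median 0.10 log2). There were 2 lower without IP library 2 and 1 lower with library size or the upper quartile as scaling. The cargo protein Scg2 was higher by 0.49 log2 and Cpe, which trims prohormones, by 0.30, beside Sst. Of 43 genes of synaptic vesicles and SNARE proteins, by contrast, 33 were higher and 0 lower, with a median of 0.35 log2 and summed levels of 15545 to 16881 CPM in IP and 12007 to 12513 CPM in input. Syt9, a calcium sensor of fast release, had 225, 187 and 220 CPM in IP, against 106, 125 and 107 CPM in input (0.90 log2, adjusted p = 7.92e-06). Sv2b, a vesicle glycoprotein, had 742, 660 and 705 CPM in IP, against 428, 426 and 345 CPM in input (0.81 log2, adjusted p = 9.68e-05). The vesicle SNARE Vamp2 was higher by 0.69 log2 and Syt11 by 0.36. Snap25 was above input in every library without passing (0.35 log2, adjusted p = 0.0935), and passed without input library 2 (adjusted p = 0.0364).

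Of 41 kinesin, dynein and axonal transport genes, 25 were higher and 1 lower (median 0.30 log2). Besides Clip3, the largest changes were in Kif2a, a microtubule-depolymerising kinesin, with 140, 128 and 142 CPM in IP and 84.2, 100.2 and 63.0 CPM in input (0.73 log2, adjusted p = 0.00843), and Snph (syntaphilin), which anchors axonal mitochondria, with 223, 190 and 228 CPM in IP and 127, 131 and 142 CPM in input (0.68 log2, adjusted p = 0.000278). The dynein intermediate chain Dync1i2 was higher by 0.38 log2. The light chain Dynlrb1 was the only member called lower (-0.29 log2). It was not called without IP library 1, IP library 3, input library 1 or input library 3 (adjusted p 0.0589 to 0.248), while without IP library 2 the lower count was 2.

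Voltage-gated channels rose in part. Of 33 potassium channel genes 16 were higher and 0 lower (median 0.26 log2), and with library size as scaling 9 were higher and 1 lower. Kcnd3, a subunit of A-type current, had 264, 232 and 266 CPM in IP, against 168, 177 and 166 CPM in input (0.58 log2, adjusted p = 9.08e-05), and the modulatory subunits Kcng2 and Kcng3 were higher by 0.64 and 0.55 log2. Of 27 sodium and calcium channel genes 13 were higher and 3 lower (median 0.26 log2). The higher count fell to 7 without IP library 1, 6 without IP library 3, 6 without input library 1 and 8 without input library 2, and to 5 and 7 with library size and the upper quartile as scaling. The calcium channel beta subunit Cacnb3 was higher by 0.48 log2. Cacna1g, a T-type calcium channel, had 0.436, 1.27 and 1.25 CPM in IP and 3.24, 4.504 and 6.68 CPM in input (-2.27 log2, adjusted p = 0.000239), and Cacna1e was lower (-0.63 log2). Scn7a, a sodium channel-like protein that Schwann cells also express, was the other member called lower (-0.28 log2, adjusted p = 0.0462), a call lost without any 1 library other than input library 3 (adjusted p 0.0774 to 0.177).

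Of 31 transduction and receptor channel genes, 10 were higher and 4 lower (median 0.13 log2). The 4 lower ones were P2rx7, an ATP-gated channel, Piezo1, a mechanically gated channel, Tmc3 and the chloride channel Ano1. P2rx7 had 3.08, 3.79 and 3.86 CPM in IP, against 24.6, 19.6 and 18.97 CPM in input (-2.55 log2, adjusted p = 9.01e-07). Piezo1 had 5.42, 6.21 and 5.91 CPM in IP, against 13.4, 14.9 and 17.5 CPM in input (-1.38 log2, adjusted p = 5.04e-05). Neither gene's fractions overlapped, and the cell source of their input level was not tested. Piezo2, the main touch channel of sensory neurons, had 876, 818 and 864 CPM in IP and 800, 762 and 855 CPM in input (0.08 log2, adjusted p = 0.459), and its fractions overlapped.

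The amyloid family had members called in both directions. Of 21 genes 6 were higher (28.6%, against 15.1% of all genes) and 5 lower (23.8%, near the 26% of all genes). The median was 0.07 log2 and turned to -0.02 with library size as scaling. The precursors were higher: App by 1.00 log2, Aplp1 by 0.78 (344, 259 and 306 CPM in IP, against 169, 173 and 186 CPM in input) and Aplp2 by 0.33. Apba1, the adaptor X11 that binds the App tail, had 1161, 917 and 1128 CPM in IP and 593, 631 and 674 CPM in input (0.76 log2, adjusted p = 5.26e-05). The lower members were the protease Bace2 (-0.75 log2), the gamma-secretase subunit Aph1a (-0.53) and the BRICHOS proteins Itm2a (-2.81), Itm2b (-0.63) and Itm2c (-0.29). The call of Itm2c was lost without IP library 1 or 3 or input library 1 or 3 (adjusted p 0.0714 to 0.266).

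Genes of other cells fell nearly without exception, and far more than neuronal genes rose. Of 26 satellite glia genes 22 were lower and 0 higher (median -2.26 log2). Those not called, named after their values were seen, were Hmgcs1, Fbxo2, S100b and Erbb3. Without input library 2 or 3 there was 1 member called higher, and without IP library 1 Erbb3 was called lower (-0.75 log2). The satellite glia markers Fabp7, a fatty acid binding protein, and Kcnj10 (Kir4.1), a potassium channel, were lower in every IP library. Fabp7 had 6.98, 27.8 and 17.96 CPM in IP, against 81.1, 124 and 86.9 CPM in input (-2.47 log2, adjusted p = 0.000988). Kcnj10 had 10.5, 13.0 and 12.9 CPM in IP, against 49.98, 61.9 and 53.2 CPM in input (-2.18 log2, adjusted p = 3.77e-06). Apoe, a lipid carrier made by glia and macrophages, had 100.4, 375 and 290 CPM in IP, against 2508, 2378 and 2831 CPM in input. Its IP level was lowest in library 1 and highest in library 2, and both were far below all inputs. Sox10, the factor of the glial lineage, changed by -2.97 log2, Gfap, a glial intermediate filament, by -3.30 and Fxyd3, a regulator of the sodium pump, by -3.71. Summed over the list, satellite glia genes took 2635 to 3053 CPM in IP and 6736 to 6889 CPM in input.

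In Schwann cells, 23 of 24 myelination genes were lower (median -2.66 log2), the exception being the cadherin Cdh1, named after its value was seen, which was called higher without IP library 2 (0.29 log2). Prx (periaxin), a scaffold protein of myelinating Schwann cells (chromosome 7, 27499305 to 27520041), had 40.6, 68.5 and 65.0 CPM in IP, against 490, 361 and 468 CPM in input (-2.92 log2, SE 0.26, adjusted p = 4.67e-06). Every IP library lay far below every input. Egr2 (Krox20), the factor that starts myelination, changed by -3.60 log2 and Pmp2, a lipid binder of myelin, by -3.52. Pmp22 had 429, 515 and 475 CPM in IP and 1390, 1084 and 1170 CPM in input, a smaller change of -1.36 log2. Of 9 genes of non-myelinating Schwann cells 8 were lower (median -1.60 log2), among them Apod, a lipocalin, at -3.37 log2 (-4.02 without IP library 2), while the neurotrophin receptor Ngfr, which neurons also use, stood at 0.11 log2 without passing. That receptor passed as higher without input library 3 (0.25 log2, adjusted p = 0.0289).

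Immune, vascular and connective tissue genes were lower as well. Of 31 macrophage genes 30 were lower (median -2.83 log2). C1qa, a complement component, had 0.716, 4.48 and 4.43 CPM in IP, against 20.5, 26.1 and 25.9 CPM in input, and Csf1r, the receptor for colony stimulating factor, had 3.02, 5.52 and 6.02 CPM in IP, against 30.9, 32.2 and 38.04 CPM in input. Of 15 lymphocyte and neutrophil genes 11 were lower (median -2.64 log2), with S100a8, a calprotectin subunit of neutrophils, at -3.34 log2. Of 26 endothelial genes 25 were lower (median -2.57 log2) and of 16 pericyte and smooth muscle genes 15 were (median -2.53 log2). Cdh5, the cadherin of endothelium, changed by -2.50 log2, and Acta2, the smooth muscle actin, had 0.467, 2.02 and 1.53 CPM in IP, against 14.7, 11.3 and 16.03 CPM in input. Of 29 genes of fibroblasts, perineurium and meninges 27 were lower and 1 higher (median -2.82 log2). Col1a1, a collagen chain, changed by -3.05 log2 and Dcn, a proteoglycan, by -3.18. The higher member was Moxd1, a monooxygenase-like protein, with 68.4, 69.6 and 62.5 CPM in IP, against 46.2, 47.5 and 45.2 CPM in input (0.53 log2, adjusted p = 0.000192). Erythrocyte genes (4 of 4 lower, median -3.20 log2), skeletal muscle genes (15 of 17, -2.24) and adipocyte genes (8 of 8, -2.34) were at low levels in both fractions. Without input library 3 the adipocyte median was -1.58 log2.

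The IP still held counts of genes listed for other cells. As a share of the input level, the summed IP level was 10.7% for erythrocyte genes, 13.8% for lymphocyte and neutrophil genes and 18.3% for fibroblast genes. It was 23.2% for myelinating Schwann cells, 28.1% for macrophages, 32.7% for endothelium and 37.4% for skeletal muscle. For pericytes and smooth muscle it was 39.3%, for satellite glia 41.9%, for non-myelinating Schwann cells 59.1% and for adipocytes 62.0%. These sums include members not called lower, such as those named above for satellite glia. No defining marker of glia, macrophages, vessels or fibroblasts was at 0 in IP. Within IP the summed level was lowest in library 1 in each of these lists: 1250, 1617 and 1497 CPM for myelinating Schwann cells, 148, 225 and 214 CPM for macrophages, and 359, 552 and 489 CPM for fibroblasts. The cell source of these IP counts was not tested, nor was the part of other cells in the changes of single genes.

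**Figure D2:**
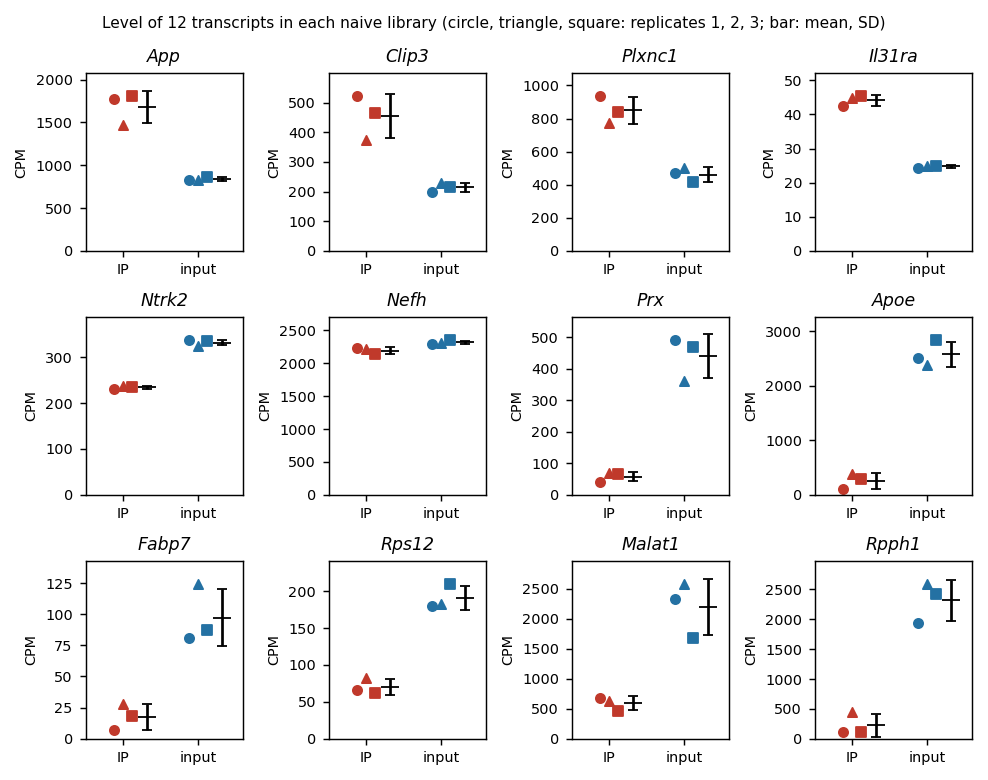
Level of 12 transcripts in CPM (y axis, starting at 0) in the 3 IP and 3 input libraries of naive ganglia, with mean and SD (n = 3) beside the points. App, Clip3, Plxnc1 and Il31ra lie higher in IP, Nefh lies near the same level in both, and Ntrk2, Prx, Apoe, Fabp7, Rps12, Malat1 and Rpph1 lie lower in IP.

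Small structured RNAs and most of the listed long noncoding RNAs were lower in IP. Of 10 small structured noncoding RNAs tested, 9 were lower, with a median of -3.35 log2, and of -4.39 without IP library 2. Rpph1, the RNA of the nuclear enzyme RNase P (chromosome 14, 50807447 to 50807771), had 114, 445 and 108 CPM in IP, against 1931, 2584 and 2431 CPM in input (-3.38 log2, adjusted p = 0.000484). Rmrp, the RNA of RNase MRP, had 10.4, 65.3 and 6.70 CPM in IP, against 502, 469 and 641 CPM in input (-4.29 log2, adjusted p = 0.0012). IP library 2 stood above the other IP libraries for both, and without it the log2 changes were -4.38 for Rpph1 and -5.98 for Rmrp, whose change was -5.00 with limma-voom. Rnu12, a small spliceosomal RNA, had no count in the 3 IP libraries and a mean of 0.295 CPM in input, so it was at least 10.01-fold lower, set against a floor of 3 counts over the IP group. With Rnu12 at that bound the list's median was -3.33 log2. Rn45s, the ribosomal RNA precursor, had 618, 564 and 432 CPM in IP and 1288, 1383 and 1475 CPM in input, in libraries made after depletion of ribosomal RNA.

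Of 21 long noncoding RNAs 13 were lower and 1 higher (median -1.22 log2). Malat1, which stays in nuclear speckles, had 686, 638 and 459 CPM in IP, against 2336, 2577 and 1675 CPM in input (-1.89 log2, SE 0.23, adjusted p = 3.87e-05). Kcnq1ot1, an imprinted nuclear transcript, had 8.19, 6.96 and 5.37 CPM in IP, against 27.6, 25.1 and 23.0 CPM in input, also a change of -1.89 log2. Sox2ot, which overlaps the glial gene Sox2 so that reads could be shared, changed by -2.21 log2. The higher one was Peg13, an imprinted transcript of brain, with 379, 302 and 360 CPM in IP, against 249, 251 and 269 CPM in input (0.44 log2, adjusted p = 0.00177), and without input library 1 there were 2 higher. Over the annotation, 582 genes of the lncRNA class were tested: 3.78% were higher and 29.2% lower, against 15.7% and 25.8% of 14976 protein-coding genes, so the share lower was near that of coding genes. The 582 had a median of -0.30 log2, and of 20 entries of the miRNA class 0 were higher and 7 lower, around a median of 0.12 log2. Of 11 host genes of small nucleolar RNAs 9 were lower (median -0.99 log2). Gas5, such a host whose spliced RNA carries a 5′ TOP start, had 19.9, 20.3 and 18.2 CPM in IP, against 37.1, 36.5 and 32.7 CPM in input (-0.87 log2), and Snhg8 changed by -1.38 log2. Of 54 replication-dependent histone genes tested 45 were lower (median -1.05 log2), such as Hist1h3c (-3.42 log2, and -4.17 with limma-voom). Histone copies are near-identical, so their counts could be split between loci.

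**Figure D3:**
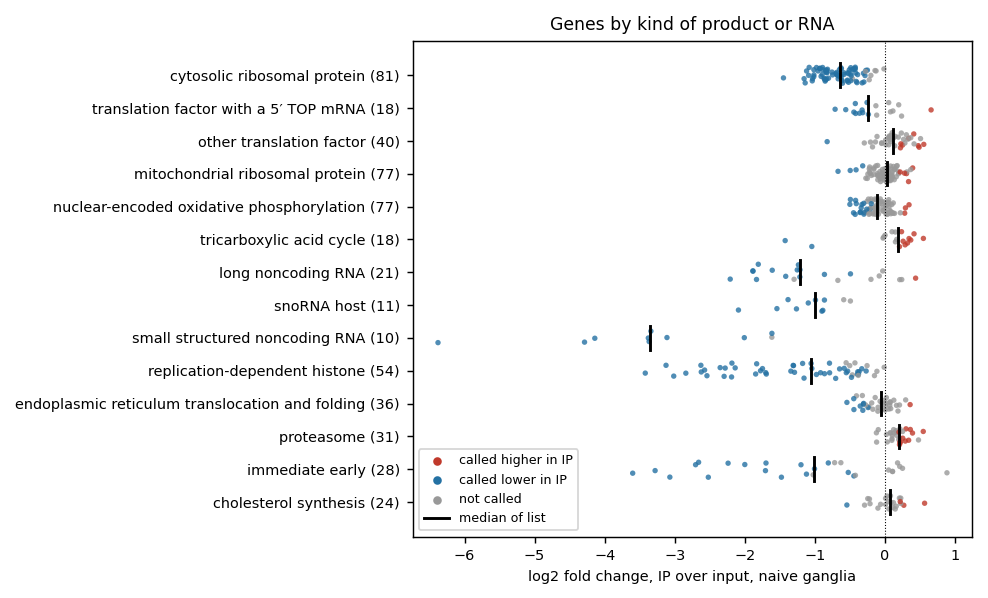
Log2 fold change of IP over input in naive ganglia (x axis) for the tested members of 14 lists of RNA classes and housekeeping functions, with the median of each list as a black bar and points coloured by the edgeR call. Small structured noncoding RNAs, long noncoding RNAs, histones and cytosolic ribosomal protein genes lie lower in IP, and mitochondrial ribosomal protein genes lie around 0.

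Messenger RNAs for the ribosome itself were lower in the ribosome IP. Of 81 genes for cytosolic ribosomal proteins 74 were lower and 0 higher, around a median of -0.64 log2, and the 3 IP libraries lay below the 3 inputs for 76. Rps12 had 66.0, 81.8 and 61.8 CPM in IP, against 180, 183 and 209 CPM in input (-1.45 log2, SE 0.13, adjusted p = 2.65e-06). Rpl32 had 65.6, 88.2 and 69.6 CPM in IP, against 159, 158 and 181 CPM in input (-1.16 log2), and Rplp0, of the ribosomal stalk, had 205, 247 and 210 CPM in IP, against 398, 397 and 466 CPM in input (-0.93 log2). Rpl3, a core protein of the large subunit, changed by -0.42 log2. Ribosomal protein genes have many processed copies in the genome, with which reads could be shared.

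Ribosomal protein mRNAs begin with a run of pyrimidines, the 5′ TOP, through which growth signalling by mTOR sets their translation. The letters CTTTC were searched on the sense strand from 10 bases before to 15 bases from the RefSeq transcript starts of GRCm38.p6, a motif and window settled on after several were tried. The letters occurred in 15 of 60 ribosomal protein genes with a sequence (25%) and in 389 of 11287 coding genes (3.45%), while on the opposite strand the shares were 3.33% and 2.97%. Shown are the windows of the 3 most and the 3 least lowered of these 15 genes, leaving out any on a chromosome not shown here. They were chosen on their values and run 5′ to 3′ from RefSeq, with the matched letters in capitals. A match can lie before the annotated start, as in Rpl7a, or after it, so the capitals do not mark where the tract itself lies.
Rps10: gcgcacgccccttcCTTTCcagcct
Rps26: gcaagccgccggatcctCTTTCgag
Rpl12: agcaggatccgtcttttcggCTTTC
Fau: gcccccacttcttcctCTTTCttga
Rpl7a: ctcttCTTTCtttctccagcagccg
Rpl15: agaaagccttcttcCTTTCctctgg

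These windows lie at chr17:27635230-27635254 (minus strand) for Rps10, chr10:128626492-128626516 (minus) for Rps26, chr2:32961702-32961726 (plus) for Rpl12, chr19:6057937-6057961 (plus) for Fau, chr2:26910797-26910821 (plus) for Rpl7a and chr14:18270972-18270996 (minus) for Rpl15. Rps10, Rps26 and Rpl12 changed by -0.96, -0.90 and -0.86 log2, Fau and Rpl7a by -0.41 and -0.39, and Rpl15 by -0.13 without passing. Ribosomal protein genes with the letters in the window had a median of -0.67 log2 and those without -0.62. Genes without the letters may still begin with the tract, so these medians do not compare genes with and without it. In windows of 20 bases before to 30 from the start, the shares were 36.7% of ribosomal protein genes and 6.75% of coding genes.

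A further list of genes with a 5′ TOP mRNA, which does not hold Gas5, moved less by its median. Of its 18 tested members, which are translation factors and some other genes such as Npm1 and Hnrnpa1, 10 were lower and 1 higher (median -0.25 log2). Eef1a1, the elongation factor that delivers aminoacyl-tRNA, had 1492, 1614 and 1451 CPM in IP, against 2223, 2182 and 1801 CPM in input (-0.45 log2, adjusted p = 0.00159). Gnb2l1 (Rack1), a scaffold on the small subunit, changed by -0.71 log2 and Tpt1 by -0.56. The member called higher was the histone chaperone Nap1l1 (0.66 log2, adjusted p = 0.0384), a call lost without IP library 1, 2 or 3 or input library 1 or 3 (adjusted p 0.0574 to 0.0987). Of 40 other translation factors 8 were higher (20%, near the 15.1% of all genes) and 1 lower (2.5%, against 26%). Their median was 0.11 log2. The higher count was 4 without IP library 1, 5 without IP library 2, 4 without IP library 3 and 4 without input library 1, and with library size as scaling 3 were higher and 4 lower. The cap-complex scaffolds Eif4g1 and Eif4g3 were higher by 0.49 and 0.55 log2. Eif4g1 had 631, 609 and 630 CPM in IP, against 440.5, 436 and 459 CPM in input. Eif4ebp1, the inhibitor that competes with them for the cap-binding protein, was lower, with 3.64, 4.39 and 4.18 CPM in IP and 6.21, 7.73 and 7.72 CPM in input (-0.83 log2, adjusted p = 0.000154).

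Mitochondrial and proteostasis genes differed less from input than ribosomal protein genes. Of 77 mitochondrial ribosomal protein genes 5 were higher and 4 lower, both below the shares over all genes, with a median of 0.02 log2 whose sign changed with the scaling. With library size as scaling these counts were 2 and 10, with the Wald test of DESeq2 11 were higher, without input library 3 they were 10 and 1, and without IP library 1 the lower count was 2. Of 77 nuclear-encoded genes of oxidative phosphorylation 3 were higher (3.90%, against 15.1% of all genes) and 16 lower (20.8%, against 26% of all genes), with a median of -0.11 log2. The lower count was 7 without IP library 1, 9 without IP library 3 and 3 without input library 3, where the higher count was 5 and the median 0.05 log2, and with library size as scaling it was 28. Atp5e and Cox7c, short subunits of complex V and complex IV, changed by -0.50 log2 each, while the Rieske protein Uqcrfs1 of complex III had 128, 125 and 126 CPM in IP, against 104, 101 and 104 CPM in input (0.29 log2, adjusted p = 0.00221). Of 18 tricarboxylic acid cycle genes 9 were higher and 2 lower (median 0.19 log2), with 5 higher without IP library 1, 4 without IP library 2 and 3 with library size as scaling. The alternative subunits of succinyl-CoA ligase differed: Sucla2, the ATP-forming subunit, had 281, 279 and 278 CPM in IP, against 209, 213 and 151 CPM in input (0.55 log2, adjusted p = 0.0069), and Suclg2, the GTP-forming subunit, had 3.64, 3.99 and 4.89 CPM in IP, against 11.6, 11.7 and 10.4 CPM in input (-1.43 log2, adjusted p = 7.54e-06). Idh2, a mitochondrial isocitrate dehydrogenase, changed by -1.05 log2.

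Of 31 proteasome genes 11 were higher and 0 lower (median 0.19 log2), among them the lid subunit Psmd11, with 107, 104 and 105 CPM in IP and 69.7, 75.2 and 71.7 CPM in input (0.54 log2, adjusted p = 4.51e-05). The higher count was 7 without IP library 2, 17 without input library 3, 4 with library size, 7 with the upper quartile as scaling and 18 with the Wald test of DESeq2. Of 36 genes of endoplasmic reticulum translocation and folding 8 were lower (22.2%, below the 26% of all genes) and 1 higher (median -0.06 log2), with P4hb, a disulfide isomerase, at -0.54 log2 and Srp68, of the signal recognition particle, at 0.36. The lower count was 4 without IP library 1, 4 without IP library 3, 5 without input library 1, 3 without input library 3 and 14 with library size as scaling. Of 24 cholesterol synthesis genes 3 were higher (12.5%, near the 15.1% of all genes) and 1 lower (4.17%, against 26%). The median was 0.06 log2, and -0.03 with library size as scaling. With library size 1 was higher and 5 lower, with the upper quartile 1 was higher and 3 lower, and with the size factors and the Wald test of DESeq2 5 and 6 were higher. Without IP library 2, 1 was higher and 4 were lower, without input library 3 the higher count was 7, and without input library 2 the lower count was 2.

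Of 28 immediate early genes 17 were lower and 0 higher (median -1.02 log2). Cyr61 and Ctgf, matrix proteins induced by growth factors and strain, changed by -3.28 and -3.07 log2. Cyr61 had 0.28, 0.578 and 0.824 CPM in IP, against 5.52, 4.36 and 6.74 CPM in input. Jun, which neurons also induce, had 105, 110 and 98.5 CPM in IP and 92.2, 104 and 94.7 CPM in input, and the fractions overlapped. Without input library 3 there was 1 higher member. Of 32 proliferation genes 20 were lower and 1 higher (median -0.69 log2). Top2a, a topoisomerase of dividing cells, had 0.841, 0.925 and 1.51 CPM in IP, against 7.003, 6.34 and 5.61 CPM in input (-2.52 log2). The higher member was E2f1, a cell cycle factor (0.38 log2, adjusted p = 0.0483), a call lost without any 1 of the 3 IP libraries and input libraries 1 and 2 (adjusted p 0.0532 to 0.147).

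Relatives lay far apart in some gene families and close together in others. In 23 pairs of a neuronal gene and a more widely expressed relative, the neuronal member had the larger log2 change in 14. It was called higher in 11 pairs and lower in 1, and the relative was called higher in 10 and lower in 7. Over all genes 15.1% were higher and 26% lower, so the relatives called lower were near that share. The medians were 0.24 log2 for the neuronal members and 0.16 for the relatives. Nefl, the light neurofilament subunit, had 5062, 4925 and 4801 CPM in IP and 4504, 4415 and 4338 CPM in input (0.16 log2, adjusted p = 0.0581), without overlap and without passing. It passed without input library 3 (adjusted p = 0.0294) and with limma-voom (adjusted p = 0.0391), the Wald test of DESeq2 (adjusted p = 0.00324), the size factors of DESeq2 (adjusted p = 0.0143) or no filter on low counts (adjusted p = 0.0228). Its relative Vim (vimentin), an intermediate filament of glia, fibroblasts and vessels, had 57.9, 115 and 88.2 CPM in IP, against 489, 480 and 520 CPM in input (-2.51 log2, adjusted p = 3.17e-06). Among SNARE proteins, Vamp2 was higher by 0.69 log2 while Vamp3 changed by -1.48 and Snap23 by -1.98. The dynamin of synapses Dnm1 was higher by 0.35 log2 while the general form Dnm2 changed by -0.52. The 14-3-3 relatives Ywhag and Ywhaz were both higher by 0.43 log2. Ncam1, an adhesion molecule of neurons and glia, was lower, with 181, 197 and 180 CPM in IP and 304, 299 and 308 CPM in input (-0.71 log2, adjusted p = 4.03e-06).

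**Figure D4:**
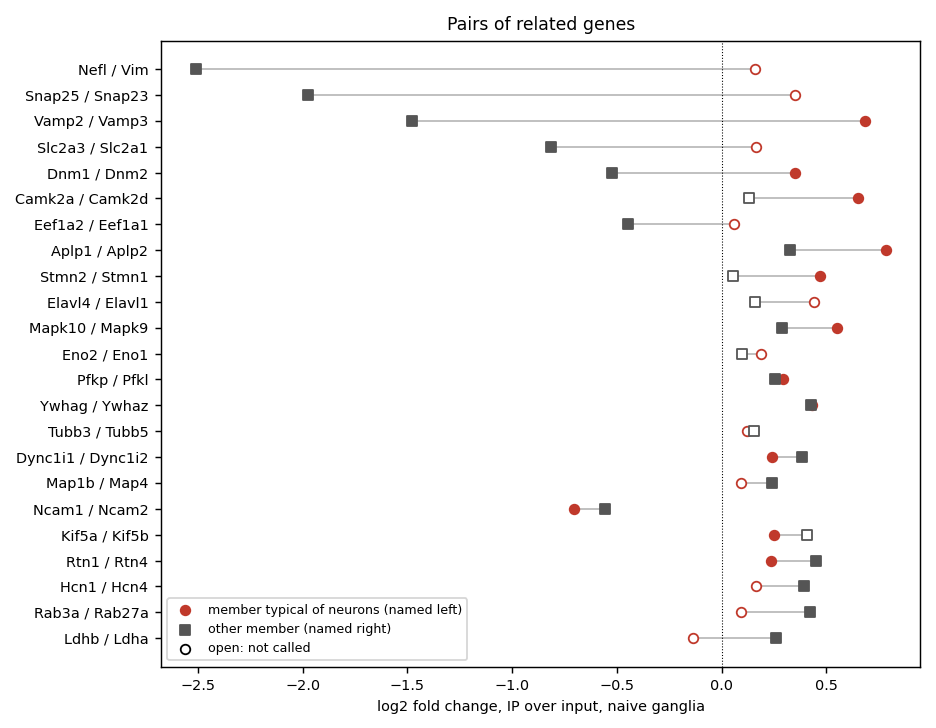
Log2 fold change of IP over input in naive ganglia (x axis) for 23 pairs of related genes, with the member typical of neurons as a circle, its relative as a square, and open symbols where the edgeR test was not passed. Pairs are ordered by the difference, from Nefl and Vim at the top (0.16 and -2.51 log2).

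Abundant cytoskeletal and lipid genes were also among the genes called lower. Sptan1 and Sptbn1, the spectrins under the membrane of neurons and other cells, changed by -0.69 and -0.43 log2. Sptan1 had 1574, 1493 and 1491 CPM in IP, against 2557, 2298 and 2476 CPM in input (adjusted p = 1.07e-05). Scd2, a desaturase that makes unsaturated fatty acids, had 1661, 1637 and 1645 CPM in IP, against 2227, 2210 and 2197 CPM in input (-0.42 log2, adjusted p = 3.34e-05). The actin-binding peptide Tmsb4x changed by -0.28 log2.

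The shortest transcripts had the smallest share called higher and the largest share called lower. Of 15748 genes, 15623 had an annotated length, and the bins below take the coding genes among them. Of 868 coding genes with transcripts of up to 1000 bases, 2.77% were higher and 37.1% lower, against 19.6% and 24.0% of 4609 genes with 3000 to 5000 bases. By coding length, 2.30% of 261 genes of up to 300 bases were higher and 41.4% lower, and 20.8% of 2448 genes with 2000 to 3000 bases were higher and 23.2% lower. Above 5000 coding bases the trend turned, with 15.6% of 674 genes higher and 31.6% lower. Genes spread over more than 300000 bases of genome were higher in 29.4% and lower in 19.6% of 469. The genes of the neuronal lists alone went the same way between short and middle lengths: 32.7% of 52 with transcripts of 1000 to 2000 bases were higher, and 61.0% of 105 with 3000 to 5000 bases. Above 8000 bases 37.8% of 37 were higher. Genes are not independent replicates, so these shares are a description.

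**Figure D5:**
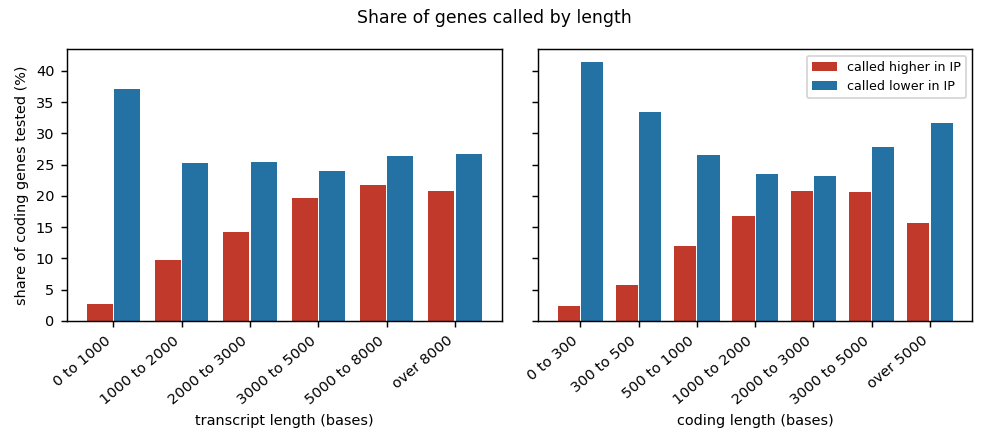
Share of protein-coding genes called higher and lower in IP of naive ganglia (y axis, percent of the genes tested in each bin, from 0) by transcript length and by coding length in bases (x axes). The share called higher is 2.77% in the shortest transcript bin and 19.6% to 21.7% above 3000 bases, and the share called lower is largest in the shortest bin on both axes.

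IP against input in injured ganglia, from other libraries of the same fit, gave medians that can be set beside the naive ones, and these were not tested against each other by list. The median was 0.33 log2 in naive and 0.40 in injured ganglia for pan-neuronal genes, and -0.64 in naive and -0.52 in injured ganglia for cytosolic ribosomal protein genes. It was -2.66 in naive and -2.64 in injured ganglia for myelinating Schwann cells and -2.82 and -2.81 for fibroblasts. Other lists lay further apart. Skeletal muscle genes had a median of -2.24 in naive and -1.58 in injured ganglia, non-myelinating Schwann cell genes -1.60 and -1.08, immediate early genes -1.02 and -0.60, lymphocyte and neutrophil genes -2.64 and -2.21, satellite glia genes -2.26 and -1.94, and cold neuron genes 0.26 and 0.46. The difference between naive and injured ganglia was itself tested for each gene, and 10 of 15748 genes (0.0635%) passed an adjusted p under 0.05. In each of the 10 the IP was lower relative to input in naive than in injured ganglia.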

How the data were processed

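The deposited gene table holds raw counts, 1 column for each of the 12 libraries, by RefSeq symbol. Per the submitters' processing notes, bcl2fastq 2.17, STAR and HTSeq were used and the builds named are GRCm38 and mm10; the step each was used for is not given. Per the labels' protocols the libraries were strand-marking, after depletion of ribosomal RNA. Whether the authors' counts used strand, and how they treated overlapping or copied genes, was not stated, so antisense and copied genes are uncertain.

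Of 24060 entries, 27 had date-like names, took 0.191% to 0.214% of a library's counts and were left out. Counts were fitted with edgeR 4.0.16 (R 4.3.3): filterByExpr, TMM factors, robust quasi-likelihood fit of all 12 libraries with a mean for each of 4 groups (8 residual degrees of freedom), contrast IP minus input in naive ganglia, Benjamini-Hochberg threshold 0.05. CPM use library size times TMM factor. Beside it stood DESeq2 1.42.0, limma-voom (limma 3.58.1), other scalings and filters, fits of the 6 naive libraries, replicate blocks and leaving out libraries. Replicates exceeded sampling noise (chi-square over its degrees of freedom 4.75 to 39.6), and none were merged. Data were simulated for this comparison over 15556 genes with 200 changed. In them, 61.2% of changes of 1.5-fold, 86.6% of 2-fold and 100% of 4-fold were recovered, and 4.62% of the calls were false. The naive libraries gave 6474 calls of 15748 genes, with 2383 higher and 4091 lower. The share of false calls with that many genes called, unequal in direction, was not tested.

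Genes were named by rule: the 15 largest changes each way among called genes whose libraries did not overlap, with a mean CPM of at least 5; the 10 called genes of highest CPM each way; in each list the 3 largest called changes, the 2 highest members and those called against the median; the pairs; and the cell type markers. The members, gene lists and this rule were chosen with earlier results of these data known. RefSeq positions matched 14895 genes by symbol and 794 by synonym. The interval table was not used here. A few genes that the rule names, and the pairs that hold them, are not reported here; gene list counts include every member.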

Additional observations from a re-analysis of the deposited data

Results flagged for a closer look

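The change of IP over input differed between naive and injured ganglia in 10 genes, tested in edgeR as the difference of the 2 contrasts, and these were chosen after their values were seen. In log2, naive minus injured, the differences were -3.12 for Anxa1, a phospholipid-binding protein that dampens inflammation, -2.20 for Trp53i11, -2.04 for Pxdc1, -1.91 for Xdh, the xanthine dehydrogenase, -1.46 for Tmem98, -1.23 for Clic4, a chloride channel-like protein, -1.03 for Rab31, a vesicle GTPase, -0.995 for Cdkn1a (p21), a cell cycle inhibitor, -0.95 for Myo10, a motor of filopodia, and -0.78 for Bach1, a heme-binding repressor. Their adjusted p-values ran between 0.0087 and 0.0388. The naive change of Anxa1 alone was -2.98 log2, and -3.70 without IP library 2. It averaged 1.59 ± 1.18 CPM in IP and 12.8 ± 0.405 CPM in input of naive ganglia, while in injured ganglia it averaged 37.9 ± 0.547 CPM in IP and 34.4 ± 2.52 CPM in input (SD, n = 3 each). Cdkn1a averaged 15.5 ± 0.373 CPM in IP and 23.8 ± 2.27 CPM in input of naive ganglia, while in injured ganglia it averaged 86.5 ± 8.80 CPM in IP and 66.6 ± 5.64 CPM in input (SD, n = 3 each).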

How the results depend on the processing

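The 20 alternatives gave between 4076 and 7211 genes called, and in each of them more genes were lower than higher in IP. The count of genes higher was 1368 with library size alone as scaling and 1303 at an adjusted p under 0.01. With a mean CPM of at least 5, 4302 genes were called and 2392 were lower, out of fewer tested. Leaving out 1 library gave 5135 to 6394 calls, of which 1645 to 2970 were higher and 3424 to 3825 lower. Leaving out the same number from both fractions gave 4076 to 5425 calls, with 1026 to 2215 higher and 2988 to 3513 lower, on fewer libraries. Of 171 genes named, 3 changed sign, and none of them passed the test as reported. The Calca log2 fold change turned to 0.0361 with DESeq2's size factors and in its Wald test and to 0.0331 with no filter on low counts, and ran from -0.1414 to 0.0512 without single libraries and from 0.0398 to 0.078 without the pairs numbered 1 and 3. The Nefh log2 fold change ran from -0.0891 to 0.0107 without single libraries and reached 0.0318 without the libraries numbered 3. The Piezo2 log2 fold change turned to -0.0119 with library size alone. The causes were not tested. Deviations of IP and input libraries of the same number correlated at 0.087, 0.0698 and 0.1437 across 15748 genes, and those of different numbers at -0.1158 to 0.0185. The values were small, but every library correlated best with its own number. The main fit did not take numbers as pairs, so its p-values leave out any pairing that the numbers mark. With the replicate block, 6208 genes were called in 12 libraries (2288 higher, 3920 lower) and 6146 in 6. Among named genes, the block in 12 libraries ended the calls of Dynlrb1 (adjusted p = 0.0634), Itm2c (0.0617) and Kit (0.0621), and Erbb3 (0.0334) and Snap25 (0.0440) passed. The block in 6 libraries ended the call of Rmrp (adjusted p = 0.0846), and Elavl4 (0.0217), Erbb3 (0.0221) and Snap25 (0.0322) passed. Depth limits genes under about 1 CPM, whose IP levels rest on few counts.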
